A study of Mus musculus with 8 samples.

Results

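MPP B and MPP C are 2 of the multipotent progenitor (MPP) classes that the authors assigned from RNA alone, and each was described here by its surface proteins. All cells carrying the RNA class MPP B or MPP C in the deposited cell table were taken, 636 and 198 cells, which is 834 of 22602 annotated cells. The proteins had no part in the class, so their levels are a readout the selection did not use. The cells came from c-Kit-enriched hind limb and hip marrow of C57Bl/6 FlkSwitch mice, young (2 to 3 months) or old (20 to 24 months), separated by CD150 into a negative and a positive fraction, with 8 libraries in all. In FlkSwitch mice a Cre recombinase driven by Flk2 switches a cell and its progeny from tdTomato (Tom) to GFP, so the reporter records passage through a Flk2+ stage and both ages carry it. The methods restrict reporter analyses to male mice, and lineage-positive cells were sorted out. The labels assign no library to an age or sort. Ages are those of the cell table, where each cell has a group name such as A1 (letters A, B, C or D), and numbers 1 and 2 are young and 3 and 4 old. How the letters relate to animals or libraries is not given, and each sorted population was split into aliquots, so the spread between letters may be technical.

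Multipotent progenitors sit between the hematopoietic stem cell (HSC) and the lineage-restricted progenitors. They no longer self-renew for long but can still give several blood lineages. By flow cytometry they are classically Lin- c-Kit+ Sca-1+ cells, told from HSCs by gain of CD48 or CD135 (Flk2) and loss of CD150. As cells lose Sca-1 and gain Fc receptors they are usually counted among myeloid-restricted progenitors.

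Each of 35 antibodies carries a DNA barcode, and its count in a cell is an antibody-derived tag (ADT) count. The deposited normalized score sets that count against the geometric mean of all antibody counts of the same cell and takes logarithms, so a score is relative to the other antibodies and is compared here as a difference, never as a fold. Scores of different antibodies are not set against each other. Means were taken within a letter, 2 classes or ages were subtracted within that letter, and the mean and SD over the 4 letters are given. An antibody is called different when the mean difference is at least 0.1 and all letters with at least 10 cells of each kind share 1 direction. Since letters are not stated to be animals, no p-value is given. A sign-flip test over 4 letters could in any case not go below 0.125.

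The median cell held 2349 ADT counts in MPP B, 1331 in MPP C, 1173 in HSC, 2095.5 in MPP A and 2513 in MPP D, and RNA medians were 23480.5 molecules in MPP B and 17798 in MPP C. Because depth moved with class, each call was repeated after thinning every cell to 300 ADT counts and on log2 of ADT counts per 1000. The letters fell into 2 sets: groups numbered 4 held 733 and 740 cells in A and B but 279 and 351 in C and D. Groups numbered 2 and 4 had mean CD150 scores of 0.696 to 0.891, the other groups 0.109 to 0.174. Groups 1 and 3 held 245 and 363 of the MPP B cells and 67 and 124 of the MPP C cells, whereas 146 of the 189 HSCs were in group 4, so the HSC comparisons also compare sort fractions, and the part of the sort cannot be told apart from that of the class. No pair of cells shared a barcode within a letter, and 2 barcodes of MPP B or MPP C cells recurred in another letter. The methods do not say how doublets were treated, and none were removed here.

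CD117, CD48, CD27 and CD9, given as markers of the 2 classes, were detected in both but were not particular to them. CD117 (c-Kit), the stem cell factor receptor, had mean scores of 1.41, 1.41, 1.43 and 1.45 in letters A to D of MPP B. In MPP C the 4 means were 1.40, 1.41, 1.41 and 1.45. The classes overlapped, with a difference of -0.0087 ± 0.014 (MPP C minus MPP B, mean ± SD, n = 4 letters). The CD117 mean was 1.40 in MPP A, 1.44 in MPP D and 1.49 in HSC. CD117 was also a criterion of the enrichment and of the authors' cell filter. CD48 (SLAMF2), which multipotent cells gain as they leave the HSC state, gave 1.60, 1.60, 1.55 and 1.56 in MPP B and 1.57, 1.57, 1.51 and 1.57 in MPP C. The 2 classes overlapped for CD48 too, and every letter stood far above its HSC mean, which ran from 0.694 to 0.823, while MPP A had 1.46 and MPP D 1.60. After thinning to equal depth, MPP C minus MPP B was 0.0555 for CD117 and 0.0379 for CD48, opposite in sign to the scores as deposited. CD27, a TNF receptor family member of early and lymphoid progenitors, gave 1.44, 1.45, 1.42 and 1.42 in MPP B. In MPP C it gave 1.25, 1.26, 1.22 and 1.35, below MPP B in each letter, and the mean was 1.41 in MPP A, 1.44 in MPP D and 1.04 in HSC. CD9, a tetraspanin abundant on megakaryocytes and platelets, gave 0.774, 0.750, 0.843 and 0.792 in MPP B and 1.18, 1.07, 1.15 and 1.05 in MPP C. Means were 0.813 in MPP A, 0.782 in MPP D and 0.994 in HSC. No MPP C letter overlapped an MPP B letter, and only the MKP class had a higher mean (1.37) among 19 RNA classes with at least 50 cells.

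**Figure D1:**
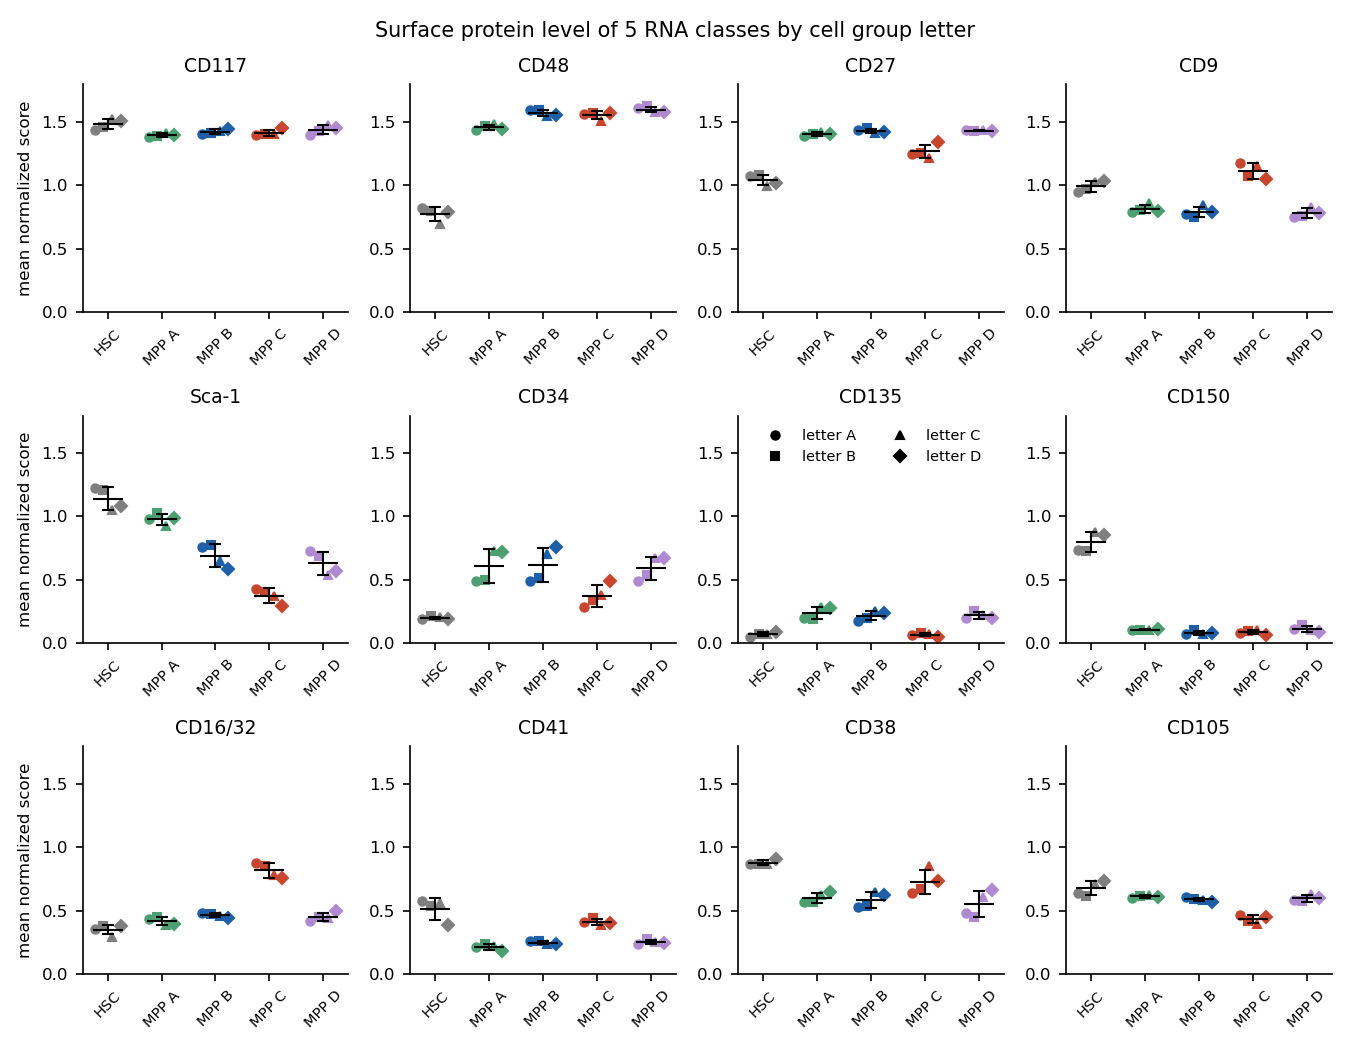
Mean normalized score (y axis, no unit) of 12 surface proteins in 5 RNA classes (x axis), 1 symbol per cell group letter, with the mean and SD over 4 letters in black. MPP C stands above the other MPP classes for CD9, CD16/32 and CD41 and below them for Sca-1 and CD135, whereas MPP B lies close to MPP D in all panels.

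The names of the classes hold for c-Kit, CD48 and CD150 but not equally for Sca-1 (Ly-6A/E), the protein that classically separates multipotent from restricted c-Kit+ progenitors. The protein thresholds of the methods, set on these samples mainly for megakaryocyte progenitors, were used as fixed cuts. CD117+ Sca-1+ cells were 280 of 636 in MPP B (44.0%, 95% Clopper-Pearson interval 40.1 to 48.0, counting error only) and 7 of 198 in MPP C (3.54%, 1.43 to 7.15). The shares were 94.2% in HSC, 74.5% in MPP A and 37.4% in MPP D. By letter, 49.5%, 52.3%, 32.3% and 32.7% of MPP B and 6.67%, 3.12%, 0% and 2.17% of MPP C passed. The 0 of 28 in letter C of MPP C allows up to 12.3%. The MPP C share was 8.59% with thresholds 0.1 lower and 1.52% with thresholds 0.1 higher. For MPP B these shares were 52.2% and 34.9%. MPP C was therefore below MPP B in each letter, and the surface of most MPP C cells did not meet the classical Sca-1 criterion. In MPP B, 355 of 636 cells (55.8%, 51.9 to 59.7) were CD117+ Sca-1- and did not meet it either. The names MPP B and MPP C are used here only as the authors' RNA classes. In contrast, CD48+ CD150- cells were 96.5% of MPP B (94.8 to 97.8) and 97.5% of MPP C (94.2 to 99.2), and the HSC combination CD48- CD150+ was found in 1 of 636 and 0 of 198 cells, the latter allowing up to 1.85%. It made up 73.5% of HSC.

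**Figure D2:**
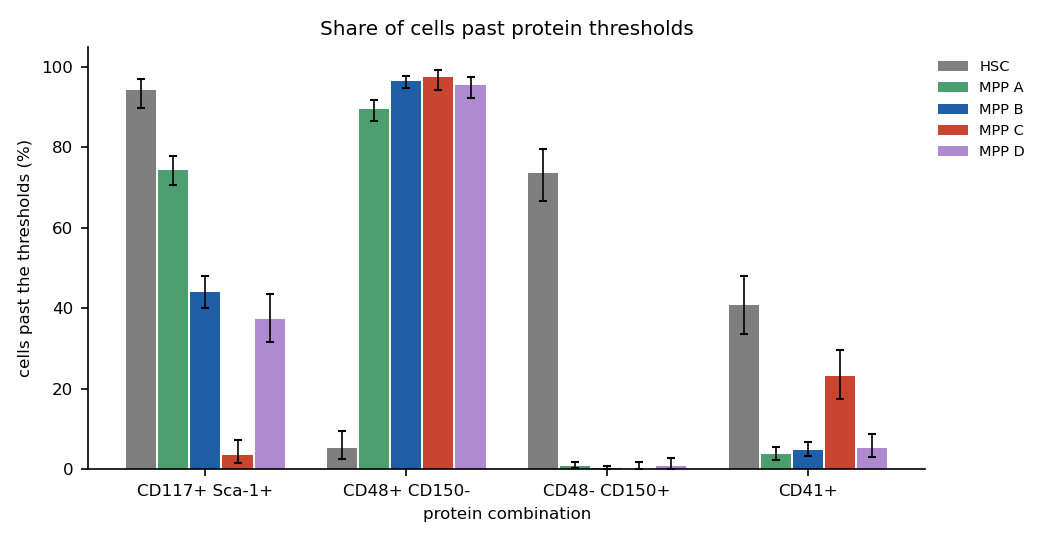
Percent of cells (y axis) of 5 RNA classes past protein thresholds of the methods (x axis, CD117 above 1, Sca-1 above 0.71, CD48 above 1.1, CD150 above 0.45, CD41 above 0.6), with exact 95% intervals for counting error. CD117+ Sca-1+ cells were 44.0% of MPP B and 3.54% of MPP C, and CD41+ cells were 4.72% and 23.2%.

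Within MPP B, Sca-1 was spread broadly, with a 10th to 90th percentile range of 0.281 to 1.25 and a median of 0.630. The 281 cells above the Sca-1 threshold and the 355 at or below it differed in other proteins, given as medians over cells. MHC II had the widest gap, 1.02 above and 0.724 at or below the threshold. CD86, a costimulatory ligand, was 0.700 and 0.459, and CD135 was 0.191 and 0.122. CD16/32 was 0.413 above and 0.540 below, and CD62L 1.31 and 1.43. CD41 was 0.153 above and 0.293 below, CD61 0.492 and 0.667, and CD9 0.737 and 0.859. CD34 (0.628 and 0.608) and CD27 (1.45 and 1.46) were nearly level across the threshold in these medians. The medians pool the letters and both ages, and 49.5%, 52.3%, 33.3% and 32.7% of cells in letters A to D lay above the threshold. MHC II means of old MPP B cells were 1.09 and 1.18 in letters A and B and 0.638 and 0.647 in C and D. The MHC II gap thus also compares letters, and the part of the letters in it was not tested. CD34 itself differed between letters, so a difference within letters could be hidden and was not tested. In MPP C the Sca-1 range was 0.146 to 0.588 and the median 0.390, and 7 of 198 cells lay above the threshold.

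MPP C differed from MPP B in 14 of 35 antibodies, 5 higher and 9 lower, which is 40% of those tested. The balance of directions depended on the scale, with 7 higher and 4 lower when thinned and 10 higher and 4 lower on log2 of counts per 1000. Higher in MPP C on the score were CD16/32, CD9, CD41, CD63 and CD38. Lower were CD62L, Sca-1, CD34, CD27, CD105, CD135, CD86, CD44 and CD61. Of the 14 calls, 8 held on all 3 scales (CD16/32, CD9, CD41, CD38, CD63, CD62L, Sca-1 and CD34). With every cell at 300 ADT counts, CD105, CD135, CD44, CD61 and CD86 fell under the threshold for a call, and on log2 of counts per 1000 the same was true of CD105, CD27, CD44, CD61 and CD86. MPP C held 1331 median ADT counts and MPP B 2349, and those 6 calls depended on the scale. Gr1 and CD79b were called higher in MPP C on both other scales but not on the score, by 0.145 and 0.122 when thinned.

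CD16/32, the low-affinity Fc-gamma receptors by which granulocyte-monocyte progenitors are gated, had mean scores of 0.877, 0.857, 0.783 and 0.758 in MPP C and 0.482, 0.473, 0.454 and 0.444 in MPP B. The lowest MPP C letter was above the highest MPP B letter. Within letters the difference was 0.395, 0.384, 0.329 and 0.314, a mean of 0.355 ± 0.040. Its share of ADT counts was 2.20% in MPP C and 0.478% in MPP B, a log2 ratio of 2.09 ± 0.44. Of 19 classes, only 2 had higher means, both of them GMP/Neut progenitor classes (1.04 and 0.969). CD9 differed by 0.405, 0.324, 0.312 and 0.257, a mean of 0.324 ± 0.061, and by 0.407 after thinning. It took 6.29% of the ADT counts of MPP C and 1.23% of those of MPP B. A cell of MPP C drawn at random had the higher CD9 score than one of MPP B of the same letter with a frequency of 0.847 ± 0.044, and for CD16/32 this was 0.857 ± 0.0055.

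The megakaryocyte and platelet list (CD41, CD61, CD9, CD62P and CD63) held 3 antibodies higher in MPP C and 1 lower of 5, beside 5 higher and 9 lower of all 35 (40%), with a median difference of 0.139 beside -0.0084 over all 35 antibodies. CD41, the integrin chain alpha-IIb, gave 0.406, 0.443, 0.389 and 0.400 in MPP C and 0.260, 0.257, 0.235 and 0.233 in MPP B. The classes did not overlap, and the difference was 0.164 ± 0.018. CD41+ cells were 46 of 198 in MPP C (23.2%, 17.5 to 29.8) and 30 of 636 in MPP B (4.72%, 3.20 to 6.67), but CD41+ CD150+ cells, the surface combination of megakaryocyte progenitors, were 0 of 198 and 2 of 636. CD63, a tetraspanin of granules, gave 0.268, 0.252, 0.224 and 0.186 in MPP C and a mean of 0.0933 ± 0.0066 in MPP B. The MPP C mean was the highest of the 19 classes, with Early Ery progentior B (0.210) within its SD, yet the median count was 2 per MPP C cell, so the level was low. CD61, the integrin chain that pairs with CD41, went the other way on the score (-0.108 ± 0.043), while its share of ADT counts was level, with a log2 ratio of 0.05 ± 0.17 and no call after thinning.

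CD62L (L-selectin), a homing receptor, had mean scores of 1.31, 1.31, 1.31 and 1.26 in MPP B and 0.741, 0.828, 0.893 and 0.929 in MPP C. MPP C was lower in each letter, by a mean difference of -0.451 ± 0.10, and CD62L was 9.13% of the ADT counts of MPP B and 3.39% of those of MPP C. Sca-1 differed by -0.330, -0.373, -0.277 and -0.292, a mean of -0.318 ± 0.043 and a log2 ratio of shares of -2.24 ± 0.17. CD34, a sialomucin of early progenitors, gave 0.492, 0.515, 0.701 and 0.755 in MPP B and 0.282, 0.339, 0.377 and 0.489 in MPP C. Letters C and D were higher than A and B in both classes, and MPP C was below MPP B in each, by -0.244 ± 0.065. CD135, the Flk2 receptor itself, gave 0.175, 0.192, 0.252 and 0.237 in MPP B and 0.0640, 0.0735, 0.0692 and 0.0451 in MPP C. The MPP C mean was the lowest of 19 classes, though MKP (0.0632) and HSC (0.0672) lay within its SD, 57.6% of its cells had no CD135 count against 22.3% in MPP B, and the difference was -0.151 ± 0.042 (-0.0537 when thinned, under the threshold). CD38, an ectoenzyme that consumes NAD, was higher in MPP C by 0.111, 0.139, 0.201 and 0.116, a mean of 0.141 ± 0.041.

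Antibody lists fixed by known role are described here by their counts, to be read against 14 called of all 35 antibodies (40%, 5 higher and 9 lower), and nothing particular to a list is drawn from them. Of the mature lineage list of 8 (TER-119, Gr1, B220, CD11b and the T cell proteins CD3, CD4, CD5 and CD8a), 0 were called between MPP C and MPP B, with a list mean difference of -0.0029 ± 0.0069 over letters, although Gr1 was called higher on both other scales. Lineage-positive cells had been sorted out. CD3, CD4, CD8a, CD11b and TER-119 had mean scores under 0.1 in both classes, so a call on the score could not arise for them. Of the stem and early progenitor list of 7, 1 was higher in MPP C (CD38) and 4 lower (CD105, CD27, CD34 and Sca-1), a median of -0.158. Of the SLAM and Flk2 list of 3 (CD150, CD48 and CD135), 1 was lower (CD135), and of the adhesion and activation list of 6, 1 was higher (CD9) and 2 lower (CD44 and CD62L). Of the lymphoid list of 10, 2 were lower in MPP C (CD27 and CD135), and of the myeloid and dendritic list of 8, 1 was higher (CD16/32) and 1 lower (CD86). Among these list calls, those of CD105, CD27, CD135, CD86 and CD44 did not hold on all 3 scales. CD11b, the integrin of mature myeloid cells, had 0.0433 ± 0.0075 in MPP C and 0.0530 ± 0.0064 in MPP B, and 69.7% and 57.1% of cells had no count. TER-119, the erythroid marker, had 0.0689 ± 0.023 and 0.0696 ± 0.0097. The 6 antibodies of the background list (CD3, CD4, CD8a, NK-1.1, TER-119 and CX3CR1) gave 0 calls in each of the 9 comparisons. In every class compared, all but CX3CR1 had mean scores under 0.1, so no class difference of 0.1 could arise for them. These 0 calls were largely set by the floor and say little about background.

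**Figure D3:**
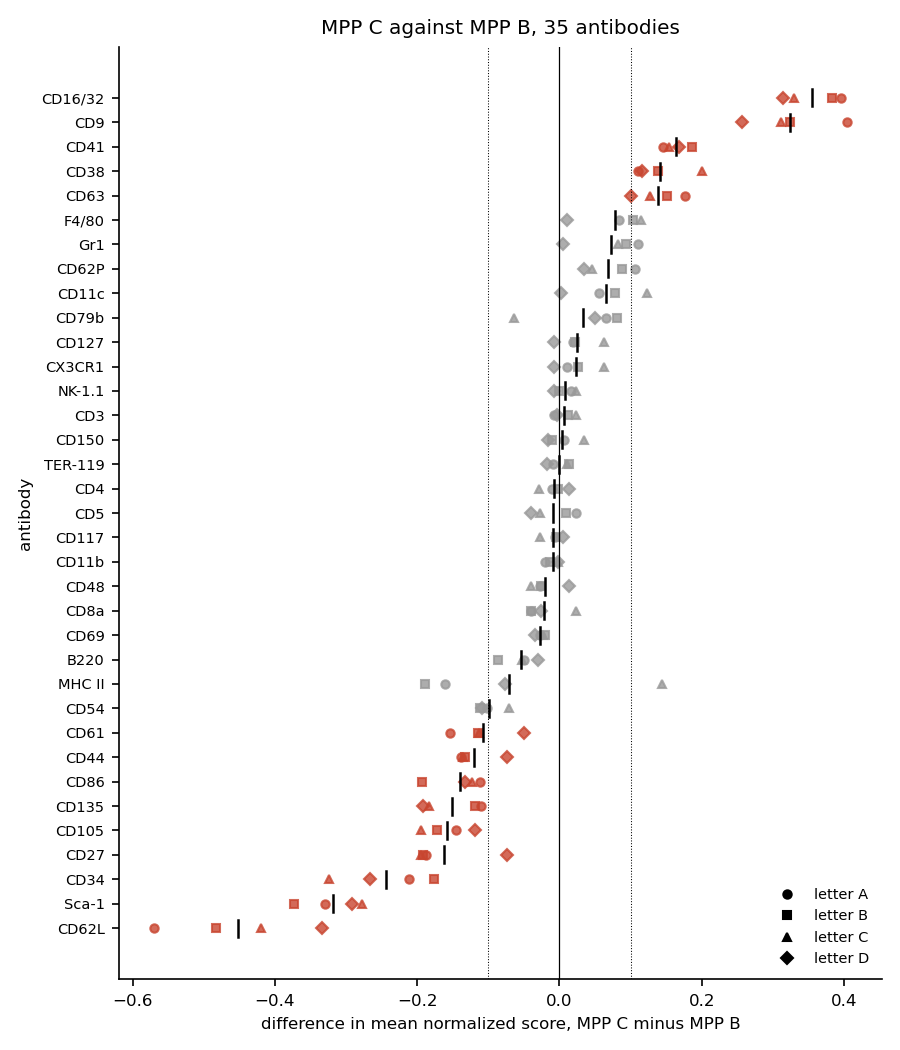
Difference in mean normalized score between MPP C and MPP B (x axis) for 35 antibodies (y axis), 1 symbol per letter and a black bar for the mean, with the 14 called antibodies in red and dotted lines at the size threshold of 0.1. CD16/32 and CD9 lie farthest to the right and CD62L and Sca-1 farthest to the left.

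Against HSC, MPP B differed in 15 of 35 antibodies (8 higher, 7 lower, 42.9% of those tested) and MPP C in 14 (8 higher, 6 lower, 40%). When thinned the split was 5 higher and 11 lower for MPP B and 5 and 7 for MPP C, and on log2 of counts per 1000 it was 6 and 14 for MPP B and 7 and 8 for MPP C. With old cells only it was 8 higher and 8 lower for MPP B and 5 and 8 for MPP C. Both had more CD48, CD27, CD34, CD62L and CD16/32 and less CD150, CD61, Sca-1, CD38 and CD54 than HSC. CD48 was higher by 0.775, 0.802, 0.854 and 0.764 in MPP B and by 0.747, 0.777, 0.814 and 0.778 in MPP C. CD150 (SLAMF1), on which the cells were sorted, had means of 0.737, 0.729, 0.878 and 0.851 in HSC, 0.0682, 0.102, 0.0686 and 0.0793 in MPP B and 0.0748, 0.0916, 0.103 and 0.0631 in MPP C. Neither class overlapped HSC in these values. CD61, the integrin chain beta-3, gave 1.31, 1.31, 1.31 and 1.26 in HSC, and MPP B and MPP C were lower, with a difference of -0.687 ± 0.057 and -0.795 ± 0.095 (class minus HSC). Sca-1 was lower, with a difference of -0.453 ± 0.039 in MPP B and by -0.771 ± 0.059 in MPP C.

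CD9 was called in opposite directions against HSC in the 2 classes. It was below HSC in MPP B (-0.171, -0.220, -0.184 and -0.243) and above it in MPP C (0.234, 0.104, 0.128 and 0.0140), although in letter D of MPP C the gap was only 0.0140, the mean without letter A fell under 0.1, and the call was lost on both other scales. CD135 was above HSC in MPP B (0.147 ± 0.025; 0.0467 when thinned) and differed by less than the SD between letters in MPP C (-0.0043 ± 0.026). CD41 was below HSC, with a difference of -0.268 ± 0.081 in MPP B, whereas in MPP C the letters were -0.172, -0.0926, -0.171 and 0.0165 with a mean of -0.105, lower in 3 of 4 letters and not called on the score. CD16/32 exceeded HSC by 0.469 ± 0.059 in MPP C. In MPP B the score difference of 0.113 ± 0.039 had no counterpart in the shares of ADT counts (log2 ratio -0.05 ± 0.46) and was 0.0420 when thinned. On all 3 scales, 12 of the 15 MPP B calls and 11 of the 14 MPP C calls held. HSC values rest mostly on old cells (172 of 189), and 14 HSCs were in letter C and 18 in letter D.

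Against MPP A, MPP B differed in 4 of 35 antibodies (11.4%), and all 4 held on the 3 scales. MPP B had less Sca-1, by -0.225, -0.253, -0.276 and -0.400 in the 4 letters, and less CD86, by -0.178 ± 0.065. It had more CD62L (0.231, 0.234, 0.187 and 0.222) and more CD48 (0.114 ± 0.039). The SD over letters was at most 0.0774. CD34, CD135, CD27, CD117, CD9, CD38, CD41, CD105 and CD150 were within 0.05 of MPP A in mean. MPP C differed from MPP A in 13 antibodies (5 higher, 8 lower, 37.1%; 7 and 6 when thinned, 9 and 6 on log2 of counts per 1000), with Sca-1 lower, with a difference of -0.606 ± 0.066, CD86 by -0.318 ± 0.046, and CD16/32 higher by 0.404 ± 0.031.

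Against MPP D, MPP B differed in 0 of 35 antibodies (0%), and 6 of the 35 kept 1 direction over the letters. The widest of these 6 were Sca-1, at 0.0305, 0.0821, 0.106 and 0.0197, and CD61, at -0.0230, -0.0659, -0.0778 and -0.0152. No alternative gave a call, leaving out single letters included. MPP C differed from MPP D in 15 antibodies (5 higher, 10 lower, 42.9%; 7 and 4 when thinned, 10 and 4 on log2 of counts per 1000), of which 8 held on all 3 scales, and these were the 8 that did so against MPP B. Both comparisons use the same MPP C cells and are not independent of each other.

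Over all 35 antibodies, the root mean square difference between class means within a letter placed MPP B nearest to MPP D (0.0323 ± 0.0078, range 0.0255 to 0.0396) and Lymphoid B (0.0396 ± 0.0094). Lymphoid A came next at 0.0592 ± 0.0115, then MPP A at 0.0784 ± 0.0138 and Lymphoid C at 0.0866 ± 0.0127. MPP C was at 0.158 ± 0.0196 and HSC at 0.305 ± 0.0094. MPP C had no such near neighbour. Its closest class was Lymphoid C (0.129 ± 0.0281), and MPP B, MPP D, Lymphoid B, MEP and GMP/Neut progenitor B followed between 0.158 and 0.168, with overlapping ranges. These are distances in antibody score, and the class names come from RNA. Median ADT counts were 1331 in MPP C, 2349 in MPP B and 2513 in MPP D. The part of depth in these distances was not tested.

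**Figure D4:**
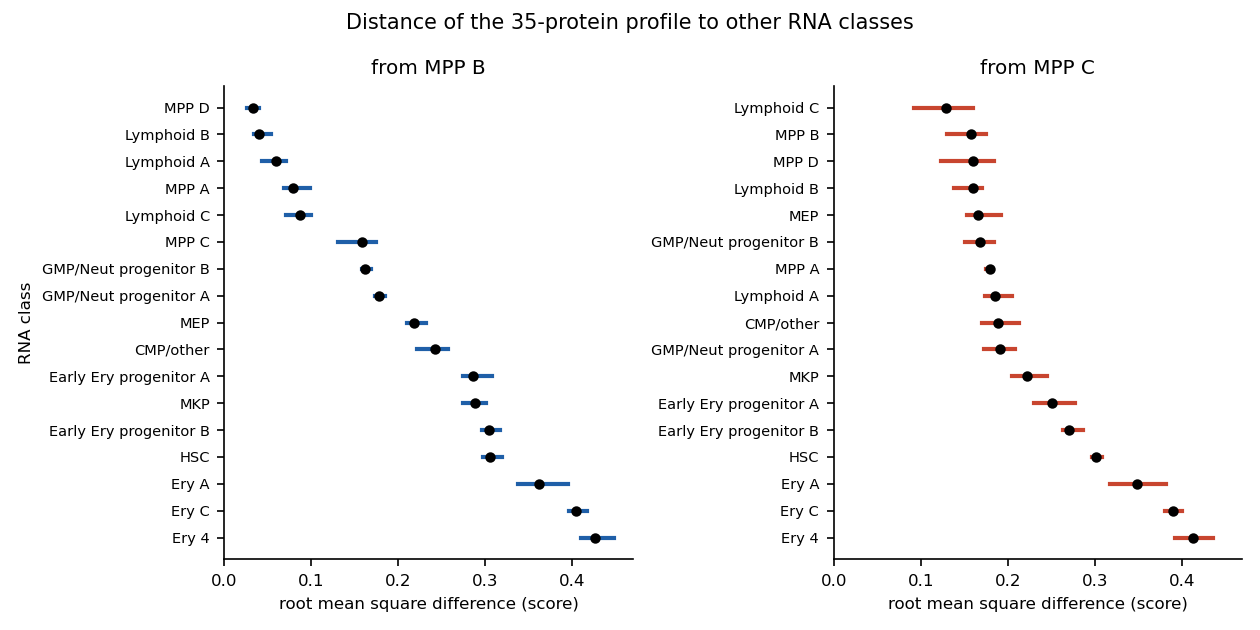
Root mean square difference of mean scores over 35 antibodies (x axis) between MPP B or MPP C and other RNA classes (y axis), with the mean over letters as a point and the lowest to highest letter as a bar. MPP B lies within 0.0784 of 4 classes, while the nearest class to MPP C is at 0.129.

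Across single cells of a class, with letter means removed and both ages pooled, some antibodies moved together. These Spearman coefficients describe cells that share libraries and a common denominator in the score, and carry no p. In MPP B, Sca-1 and CD86 had a rho of 0.50, CD9 and CD41 0.45, and CD27 and CD48 0.70 (n = 636 cells). In MPP C, CD61 and CD41, which form 1 integrin, had a rho of 0.55, and CD38 and F4/80 0.63, beside 0.66 in MPP B (n = 198 cells in MPP C). Both CD38 and F4/80 were called lower in old cells of both classes, and the part of age in their rho was not tested. CD9 and CD41 had a rho of -0.21 in MPP C, opposite in sign to MPP B, and CD61 and CD41 had 0.27 in MPP B. In MPP C, CD9 and CD63 had a rho of 0.38 with each other, and of 0.38 and 0.46 with CD16/32. With CD61 they had -0.36 and -0.28, and CD63 had -0.22 with CD41. CD9 and CD63 thus did not move with CD41 and CD61 in MPP C.

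Old and young cells of MPP B differed in 6 of 35 antibodies (2 higher in old, 4 lower, 17.1%), and those of MPP C also in 6 (2 higher, 4 lower, 17.1%; 3 and 3 when thinned). MHC II, CD11c, CD38, CD86 and F4/80 were in both sets of 6, each in 1 direction, with CD34 sixth in MPP B and CD63 sixth in MPP C. MPP B rests on 262 young and 374 old cells and MPP C on 72 and 126, of which 10 young and 18 old cells were in letter C. Median ADT counts were 2496 in young and 2231.5 in old MPP B, and 1420 and 1289.5 in MPP C.

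CD38 was 0.633, 0.677, 0.704 and 0.684 in letters A to D of young MPP B and 0.477, 0.459, 0.577 and 0.550 in old MPP B. In MPP C it was 0.833, 0.908, 0.964 and 0.858 in young and 0.552, 0.565, 0.789 and 0.607 in old cells. Old cells were lower in every letter of both classes, by -0.159 ± 0.041 in MPP B and -0.263 ± 0.070 in MPP C (old minus young). The fall in score was wider in MPP C in each letter, by -0.104 ± 0.037, and no test of this gap was possible. As log2 ratios of ADT shares the falls overlapped in spread, at -0.87 ± 0.15 in MPP C and -0.67 ± 0.28 in MPP B. CD86 was 0.668, 0.725, 0.683 and 0.629 in young and 0.469, 0.530, 0.482 and 0.463 in old MPP B, with no overlap. It differed by -0.190 ± 0.016 in MPP B and -0.221 ± 0.094 in MPP C. F4/80, an adhesion receptor of macrophages, differed by -0.0890, -0.109, -0.135 and -0.108 in MPP B, which was under 0.1 in mean when thinned, and by -0.212, -0.244, -0.143 and -0.275 in MPP C.

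CD34 was lower in old MPP B, at 0.422, 0.456, 0.612 and 0.641 against 0.651, 0.628, 0.765 and 0.854 in young cells, a difference of -0.192 ± 0.035. In MPP C the CD34 differences were 0.0034, 0.0273, -0.174 and -0.175, near 0 in letters A and B and lower in C and D. CD63 was lower in old MPP C, with a difference of -0.114, -0.134, -0.0455 and -0.144, a mean of -0.109 ± 0.044 (-0.0661 when thinned).

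MHC II, the antigen-presenting molecule, rose with age by amounts that depended on the letter. Young MPP B cells had 0.583, 0.663, 0.558 and 0.555 and old ones 1.09, 1.18, 0.638 and 0.647. The differences were 0.512 and 0.514 in letters A and B but 0.0800 and 0.0919 in C and D, so the mean of 0.299 ± 0.25 stands for neither set. In MPP A and MPP D, whose cells share the letters, the differences were 0.518, 0.431, 0.0967 and 0.0760 and 0.540, 0.458, 0.0395 and 0.180, with the same split. In MPP C the differences were 0.228, 0.216, 0.194 and 0.0315, smaller than in MPP B in A, B and D and larger in C. CD11c, an integrin of dendritic and myeloid cells, was higher in old MPP B by 0.157, 0.115, 0.159 and 0.140 and in old MPP C by 0.0867, 0.125, 0.279 and 0.171, and its call was lost in both classes when thinned.

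CD117, CD48, CD27 and CD9 were not called with age in either class. In MPP B the difference was 0.0288 ± 0.042 for CD117, -0.0488 ± 0.053 for CD48, -0.0372 ± 0.070 for CD27 and 0.0755 ± 0.056 for CD9. In MPP C they were 0.0245 ± 0.034, -0.0743 ± 0.038, -0.0082 ± 0.11 and 0.0610 ± 0.092. CD48 in MPP C was the 1 value of these 8 with a single direction in all letters. The share of CD117+ Sca-1+ cells was 42.7% in young and 44.9% in old MPP B, and 2.78% and 3.97% in MPP C, with overlapping intervals. Called age differences numbered 8 in MPP A and 7 in MPP D, and CD38, CD86, CD11c and MHC II were among them in the same directions as in MPP B and MPP C. CD34 was lower in old cells of MPP A and MPP D too. F4/80 was called lower in old cells of MPP A (-0.147 ± 0.035). In MPP D it was lower in each letter (-0.0985 ± 0.073), just under the size of a call.

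**Figure D5:**
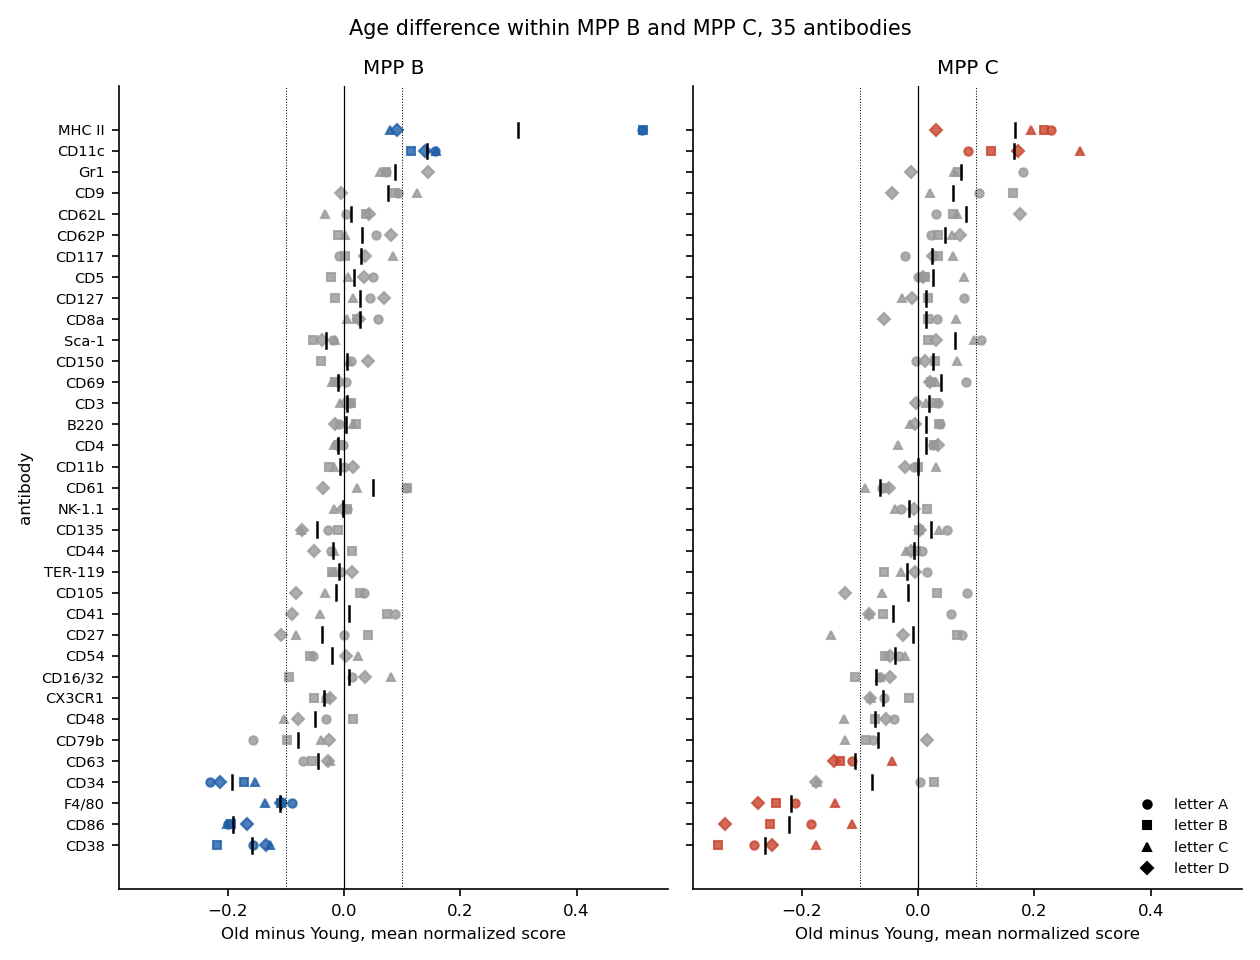
Old minus young difference in mean normalized score (x axis) for 35 antibodies (y axis) in MPP B (blue when called) and MPP C (red when called), 1 symbol per letter and a black bar for the mean, with dotted lines at 0.1. For MHC II in MPP B, letters A and B lie at 0.512 and 0.514 and letters C and D at 0.0800 and 0.0919.

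The share of annotated cells in each class differed with age and letter. The sort and the loading of libraries set these denominators, so they are not abundances in marrow. MPP B made up 1.57%, 2.04%, 2.35% and 2.65% of young cells in letters A to D and 4.14%, 4.56%, 2.15% and 3.02% of old cells. The old share was higher in A, B and D and lower in C, and the log2 ratio averaged 0.65 ± 0.74. MPP C made up 0.506%, 0.560%, 0.436% and 0.806% of young and 1.38%, 1.42%, 0.992% and 0.977% of old cells, higher in old cells in each letter, with a log2 ratio of 1.06 ± 0.54. With HSC and MPP cells alone as the denominator, the log2 ratio was 0.0046 ± 0.15 for MPP B and 0.42 ± 0.51 for MPP C, of which letter C alone gave 1.17.

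Nearly all cells of both classes were called Egfp-positive by the authors. Egfp-negative calls were 16 of 636 in MPP B (2.52%, 1.44 to 4.05) and 6 of 198 in MPP C (3.03%, 1.12 to 6.48), against 137 of 189 HSCs (72.5%). Of the 16 in MPP B, 13 were old and 3 young. Too few letters held 10 negative cells for a comparison. As a description, the median CD48 score was 1.51 in negative and 1.61 in positive MPP B cells, that of CD61 0.822 and 0.588, and that of CD34 0.771 and 0.613.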

How the data were processed

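CITE-seq libraries of sorted young and old FlkSwitch marrow were analysed from the count table and the cell table. ADT counts were deposited as raw counts per antibody and cell, after the authors had processed reads with Cell Ranger on mm10 (submitters' processing notes), removed cells with fewer than 200 genes and removed cells negative for both CD117 ADT and Kit. The deposited normalized score was made by the authors with a centered log-ratio per cell followed by a logarithm, and recomputing it showed 2 logarithms. The cell table also holds the mitochondrial percent of RNA counts per cell, deposited by the authors and not used in a result. Another 188 cells of the count table had no annotation and were left out. RNA expression was not analysed here.

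Class means per letter, differences, SDs, distances, shares and exact Clopper-Pearson intervals (95%, counting error only) were computed with Python 3.11.15, numpy 2.4.6, pandas 2.3.3 and scipy 1.17.1, and figures with matplotlib 3.10.9. A call needed a mean difference of at least 0.1 (0.5 on the log2 scale), 1 direction in all letters and at least 3 letters with at least 10 cells of each kind. The calling script was tested on simulated data. No test over libraries was possible, since no table gives the library of a cell. Antibodies always named were CD117, CD48, CD9, CD27, Sca-1, CD34, CD135, CD150, CD16/32, CD41, CD38 and CD105, with the called antibodies of each comparison by size, at most 8. Others named (CD11b, TER-119, CD61, CD86, CD105, CD44, CD63 and F4/80 beyond those places, the pairs of correlated antibodies, and those set out by Sca-1 or Egfp) were chosen after their values were seen. The classes and lists were chosen with earlier results of these data known. Alternatives were single letters left out, other scales, medians, centring, cell minimums, group weights, 1 age, Egfp-positive cells, shifted thresholds and another denominator. Those using letters A and B, letters C and D, or groups 1 and 3 alone were added after seeing the data.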

Additional observations from a re-analysis of the deposited data

Results flagged for a closer look

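Over 130 sets of 4 letter values, those of the antibodies named for each of the 9 comparisons, 2 held a letter far from the other 3. Chance sets apart about 1 in 20 such sets. For CD27, MPP C minus MPP B was -0.0744 in letter D and between -0.195 and -0.188 in the others. For CD41, old minus young in MPP C was 0.0566 in letter A and between -0.0839 and -0.0609 in the others. Sets outside these 130 were not searched, and some also had a letter apart. CD44 in MPP C minus MPP B was -0.0740 in letter D and between -0.138 and -0.133 in the others. CD61 in MPP C minus MPP D was -0.0647 in letter D and between -0.191 and -0.177 in the others. For 2 antibodies the age difference had opposite signs in the classes in all letters: Sca-1, with a mean of -0.031 in MPP B and 0.0632 in MPP C, and CD135, with -0.0454 and 0.0223. None of these age differences reached the size of a call, whereas CD27 was called lower in MPP C than in MPP B. The gap between the classes in their age differences was not tested.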

How the results depend on the processing

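Differences were taken within letters, but by replicate number no paired analysis was possible because no table ties the labels' replicate numbers to cells. The total of called antibodies in each comparison stayed within 1.5 times its reported value under all alternatives run, but the split by direction did not: MPP C minus MPP B went from 5 higher and 9 lower to 10 and 4 on log2 of counts per 1000, MPP C minus MPP D from 5 and 10 to 10 and 4, and MPP B minus HSC from 8 and 7 to 6 and 14. That scale moved the median difference of all antibodies to 0.12 for MPP C minus MPP D and -0.21 for MPP B minus HSC. With old cells only, MPP C minus HSC went from 8 higher and 6 lower to 5 and 8. Leaving out 1 letter gave 15 to 16 calls for MPP B minus HSC, 4 to 5 for MPP B minus MPP A, 0 for MPP B minus MPP D, 13 to 16 for MPP C minus HSC, 13 to 15 for MPP C minus MPP A, 13 to 16 for MPP C minus MPP B, 14 to 17 for MPP C minus MPP D, and 6 to 7 for old minus young in both classes. Thresholds 0.1 lower moved CD117+ Sca-1+ cells to 52.2% of MPP B and 8.59% of MPP C, and thresholds 0.1 higher moved them to 34.9% and 1.52%. The log2 ratio of old to young shares of MPP C was 0.42 with HSC and MPP classes as the denominator against 1.06 with all cells. The cause was not tested. Of 1816 values of named antibodies under alternatives, 129 moved by more than the SD between letters (or, on the log2 scale, changed their call) and 0 called values changed sign; 80 values of antibodies not called did, CD117 and CD48 in MPP C minus MPP B among them. Not run for want of cells were a minimum of 20 cells, young cells only and groups 1 and 3 only against HSC, the minimum of 20 for age in MPP C, and all Egfp-negative comparisons. Depth limits CD135 and CD63, at medians of 0 to 2 counts per cell.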
